A study of Mus musculus with 12 samples.

Results

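The transcriptomes of CD25 High and CD25 Low cells sorted from WT mice were compared across all expressed genes, pairing the libraries by replicate number. The comparison used 6 of the 12 RNA-seq libraries of the study, 3 per gate, fitted together with the 6 libraries of TG mice. The TG libraries add to the estimates of spread and of the replicate effect behind the WT values. They also serve below as a second set of the same contrast. All mice were C57BL/6 and homozygous for Atg5 flanked by loxP sites (Atg5 flox/flox). WT mice lacked Cre (CD11c Cre -/-), so their dendritic cells keep Atg5, an autophagy gene. TG mice (CD11c Cre +/-) carried Cre driven by the CD11c promoter, which is active mainly in dendritic cells but also in some other leukocytes. CD4+ cells with High or Low CD25 were sorted from spleen and from inguinal, cervical and brachial lymph nodes. The labels call both gates regulatory T cells, mention no Foxp3 stain or reporter, and do not give the age of the mice. Nothing in them says that the replicates are different animals, so each p-value reflects the spread among these libraries, which may be technical.

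Regulatory T cells (Tregs) hold other immune cells in check and depend on the transcription factor Foxp3. They make little interleukin-2 (IL-2) of their own and consume IL-2 made by other T cells. CD25, the product of Il2ra, is the alpha chain of the IL-2 receptor: with the beta chain (Il2rb) and the common gamma chain (Il2rg) it forms the high-affinity receptor, which signals through the kinases Jak1 and Jak3 to STAT5. STAT5 in turn activates Foxp3 and Il2ra and feedback inhibitors such as Cish and Socs2.

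The 6 WT libraries held between 18161830 and 23942479 counted reads each. Libraries carrying the same number varied together: their deviations from the group means correlated at 0.470 to 0.797 over the 3 WT pairs, against -0.665 to 0.166 for the 6 WT pairings of unlike numbers. Replicate 1 of both gates stood apart by RNA of other cells, and WT Low replicate 1 held macrophage transcripts that the other WT libraries nearly lacked. Fits without these libraries are therefore given for many of the calls resting on them.

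edgeR called 192 of 11766 tested genes (1.63%) at an adjusted p below 0.05, with the replicate number as a block. Of these, 117 (0.994% of tested genes) were higher in CD25 High and 75 (0.637%) were lower. The changes were modest: the median increase was 1.68-fold and the median decrease 1.88-fold, and 67 of the 192 exceeded 1 on the log2 scale. All 3 pairs had the same direction for 190 of the 192, against 34.6% of all tested genes. The 3 High libraries did not overlap the 3 Low libraries in 129 of the 192, against 1042 (8.86%) of all tested genes. The difference was largest in pair 1 for 100 of the called genes, in pair 2 for 62 and in pair 3 for 30.

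Without the block edgeR called 6 genes (0.051%): Il2rb, Gpr83, Rragd, Zscan29 and Mcub, higher in High, and Vipr1, lower. Every other gene described here as having risen or fallen passed only in the blocked fit. When WT Low replicate 1 was dropped there were 87 calls, with 86 of the 192 among them. Leaving out WT High replicate 1 gave 96, which held 91 of the 192. Leaving out all 4 libraries numbered 1 gave 49, every one of them among the 192. The calls were also repeated in 23 fits that kept a replicate block and changed 1 choice. These left out 1 library, the 4 libraries of a number or the 6 TG libraries, or used another scaling, filter or tool, or a block within genotype. In all 23, 38 genes were called. A gene that a fit did not test, such as one under its filter, counts as not called there.

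**Figure D1:**
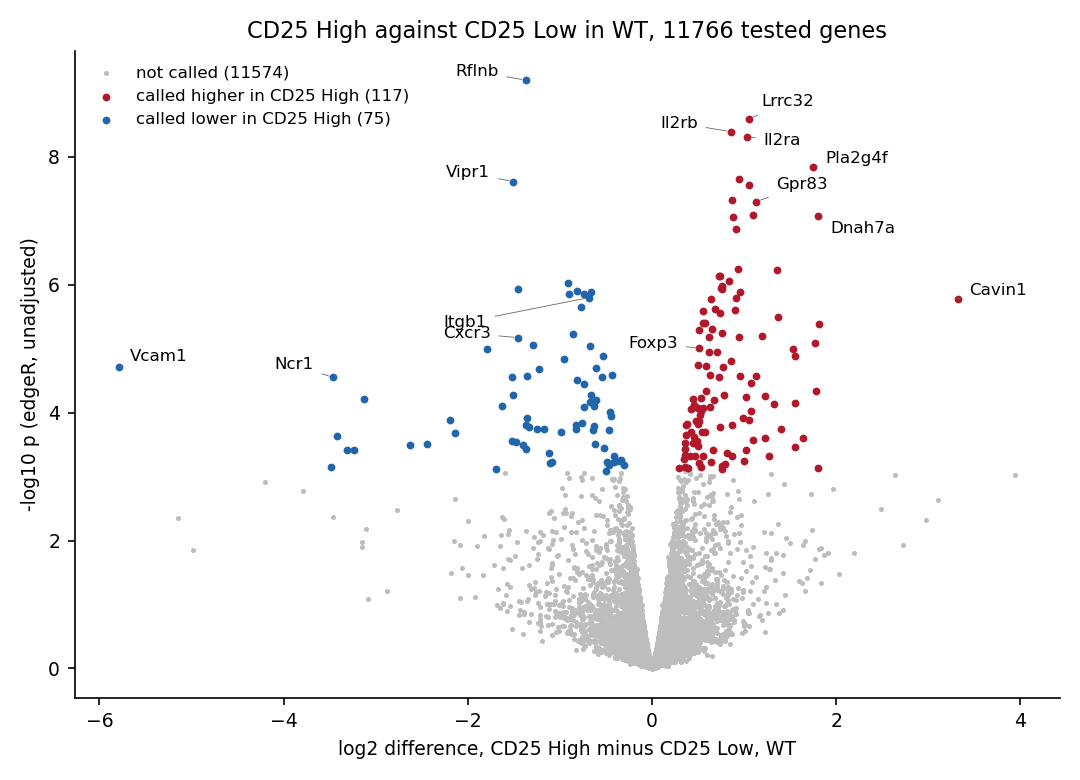
Log2 difference between WT CD25 High and WT CD25 Low (x axis) against -log10 of the unadjusted edgeR p (y axis) for 11766 tested genes, with 117 genes called higher in red, 75 called lower in blue and the rest in grey. Rflnb had the smallest p, and Lrrc32, Il2rb and Il2ra led the genes higher in CD25 High.

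The receptor chain used for the sort differed as the gates were drawn, and the beta chain was higher with it. Il2ra (ENSMUSG00000026770, chromosome 2, 11642807 to 11693193, plus strand) stood at 1189, 1072 and 1309 CPM (counts scaled by library size and TMM factor) in WT High replicates 1, 2 and 3, and at 481, 553 and 734 in WT Low replicates 1, 2 and 3. The lowest High library lay above the highest Low library. The fitted increase was 2.04-fold (log2 1.03, SE 0.09, edgeR adjusted p = 1.42e-05). Il2ra encodes the protein by which the cells were sorted, so its difference checks the gates and is no finding of its own. In such bulk samples, fewer cells with a transcript and less of it per cell cannot be told apart.

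Il2rb, the signalling chain shared with the IL-15 receptor, was at 1871, 1883 and 1800.2 CPM in High and 963, 1144 and 970.0 in Low. The gates did not overlap, the 3 High values lay within a narrow band, and the 1.81-fold rise (log2 0.86, SE 0.07, adjusted p = 1.42e-05) also passed without the block. No other gene of the pathway passed. The common gamma chain Il2rg differed by log2 0.03 (SE 0.07), Jak1 by 0.02 (SE 0.09) and Jak3 by 0.08 (SE 0.12). Of the STAT5 genes, Stat5a differed by 0.21 (SE 0.08, adjusted p = 0.268) and Stat5b by 0.11 (SE 0.07, adjusted p = 0.695). Of the 11 tested genes of the receptor and its JAK-STAT5 chain, 2 rose and none fell, with a median of 0.05 against -0.00103 over all tested genes. Il2ra is one of the 2, and without it 1 of 10 rose, with a median of 0.04.

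Socs2 and Cish, feedback inhibitors that STAT5 is known to induce, rose in CD25 High, while the other 12 tested genes of cytokine feedback did not pass. Socs2 stood at 58.0, 49.8 and 67.7 CPM in High and 20.4, 28.0 and 33.9 in Low, without overlap, a 2.14-fold rise (log2 1.10, SE 0.12, adjusted p = 8.02e-05). Cish (chromosome 9, 107296026 to 107302784, plus strand) stood at 311, 314 and 401 in High against 172, 214 and 286 in Low and was 1.54-fold higher (log2 0.62, SE 0.10, adjusted p = 0.00231). The Cish gates did not overlap either, although High replicates 1 and 2 lay close to Low replicate 3. The list of 14 had a median of 0.02, with 8 positive and 6 negative differences: Socs1 had 0.25 (SE 0.10), Socs3 -0.05 (SE 0.24) and Pim1, a kinase also induced by cytokines, 0.06 (SE 0.20).

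Because STAT5 binds the palindrome TTCNNNGAA, the RefSeq promoter windows (250 bases before to 50 after a gene's start, GRCm38.p6) were searched for it. It reads the same on both strands. It occurred in 11 of the 92 genes called higher that had a window (12%), in 2 of the 53 called lower (3.77%), in 8.30% of tested genes with a window and in 9.55% of all genes in the table. The shorter forkhead motif GTAAACA, on either strand, had shares in the same order. It occurred in 5 of the 92 (5.44%), in 1 of the 53 (1.89%), in 3.19% of tested genes with a window and in 4.05% of all genes. Of the 63 called genes named by rule, 5 had TTCNNNGAA in a window: Foxp3, Cish and Tnfrsf18, which rose, and Klhl5 and Sgk1, which fell. Il2ra and Socs2 were not among the 5. From these, the windows of Cish and Foxp3 are shown because both genes rose and are textbook STAT5 targets. Capitals mark TTCNNNGAA, and both are read 5′ to 3′ on the plus strand.
Cish, chr9:107296409-107296708: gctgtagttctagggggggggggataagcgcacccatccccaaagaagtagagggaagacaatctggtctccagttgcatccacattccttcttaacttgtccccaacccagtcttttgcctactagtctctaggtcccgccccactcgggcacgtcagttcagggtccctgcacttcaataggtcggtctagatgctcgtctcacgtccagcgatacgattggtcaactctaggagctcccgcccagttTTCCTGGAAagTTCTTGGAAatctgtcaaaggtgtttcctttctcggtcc
Foxp3, chrX:7580233-7580532: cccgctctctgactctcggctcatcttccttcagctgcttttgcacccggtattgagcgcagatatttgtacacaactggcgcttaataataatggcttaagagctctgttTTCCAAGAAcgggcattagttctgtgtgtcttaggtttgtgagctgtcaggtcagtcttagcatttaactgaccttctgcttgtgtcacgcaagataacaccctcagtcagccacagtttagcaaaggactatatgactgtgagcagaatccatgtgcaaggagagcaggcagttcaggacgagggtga
The Cish window holds 2 copies, the first starting at the annotated start base. The Foxp3 window, one of its 2 in the table, holds 1 copy that begins 139 bases before the start. A match of letters is a description of the sequence and does not show binding.

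Foxp3 (ENSMUSG00000039521, chromosome X, 7573644 to 7595245, plus strand) was abundant in both gates and higher in CD25 High. It stood at 1454, 1662 and 1532 CPM in High and 983, 1185 and 1089.6 in Low, and the gates did not overlap. The rise was 1.43-fold (log2 0.51, SE 0.08, 95% interval 0.36 to 0.67, adjusted p = 0.00212), smaller than that of Il2ra. Cd4, a marker by which the cells were also sorted, did not pass and differed by -0.06 (SE 0.07, adjusted p = 0.938).

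Most genes of the Treg core list rose. Of its 28 tested genes, 18 rose and none fell, against 0.994% and 0.637% of all tested genes. Without the block 2 of the 28 passed. A positive difference was seen in 26, with a median of 0.49 in log2 against -0.00103 over all tested genes. The list was chosen with earlier results of these data known, so its counts are a description and no test of the programme. Il2ra, used for the sort, is among the 18: without it 17 of 27 rose, with a median of 0.47. The median of the 28 was 0.46, 0.55 and 0.46 in pairs 1, 2 and 3. Without WT Low replicate 1, 11 of the 18 were called, and without the 4 libraries numbered 1, 8 were. Gpr83 (G protein-coupled receptor of Tregs, chromosome 9, 14860210 to 14870789, plus strand) stood at 514, 487 and 503 CPM in High and 197, 230.0 and 267 in Low, a 2.18-fold rise (SE 0.11 on log2 1.13, adjusted p = 5.93e-05). Its High libraries were nearly level with each other and far above every Low library. Rgs1, which dampens G protein signalling, was at 314, 284 and 383 in High against 145, 157 and 259.8 in Low (log2 0.83, SE 0.11, adjusted p = 0.000533), again with no overlap.

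Increases were also called for Plagl1, a zinc finger factor (log2 1.02), Swap70, a regulator of actin (0.51), and Capg, an actin-capping protein (0.44). Hopx, a homeodomain cofactor (0.39), Izumo1r, the folate receptor family member FR4 (0.38), and Entpd1, the ectonucleotidase CD39 (0.47), were called higher too. Of the 23 fits, 22 called Swap70, 17 Plagl1, 17 Capg, 17 Izumo1r and 12 Hopx. The Entpd1 call was lost without WT High replicate 1, 2 or 3 or WT Low replicate 1, 2 or 3 (adjusted p from 0.0588 to 0.252). The other 10 genes of the list did not pass. They included Nt5e, the partner ectonucleotidase CD73 (0.29, adjusted p = 0.0966), Nrp1 (0.15, adjusted p = 0.677), Lgals1 (-0.13) and the cytokine gene Il10 (-0.98, SE 0.76).

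The plot of all lists shows the Treg core list as the one shifted furthest upward.

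**Figure D2:**
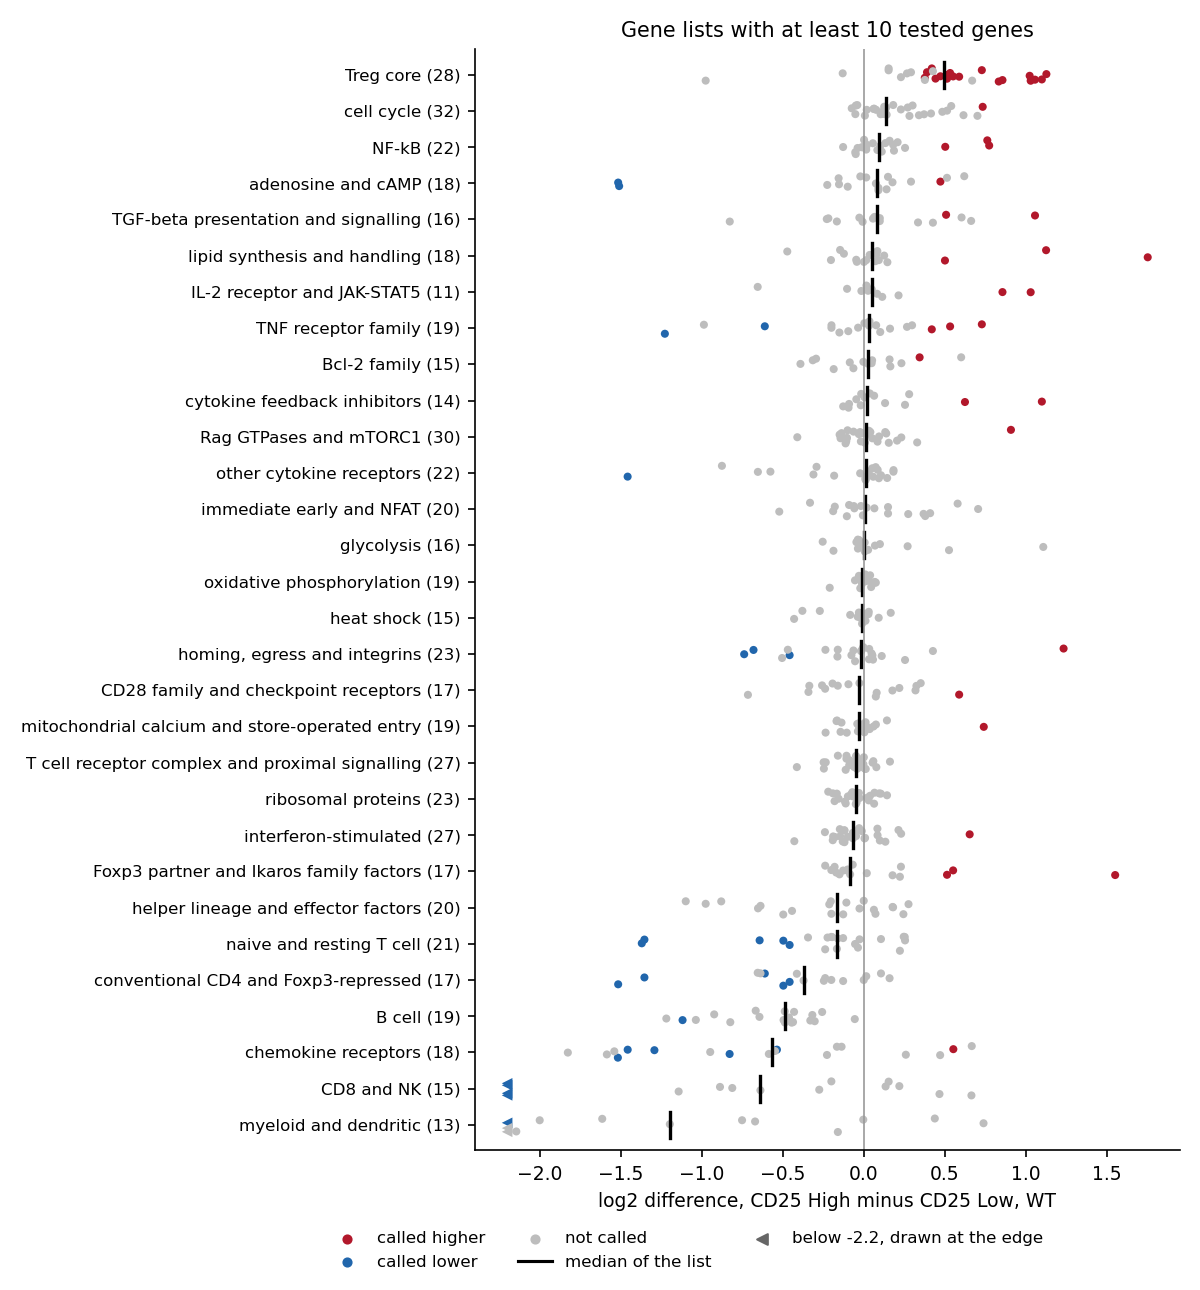
Log2 difference between WT CD25 High and Low (x axis) for every tested member of the 30 gene lists with at least 10 tested genes (y axis, number tested in brackets), with calls coloured and the list median as a black bar. The Treg core median lies at 0.49, most other medians lie near 0, and chemokine receptors and the lists of B, CD8 or NK and myeloid cells lie lowest.

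Among costimulatory receptors of the TNF family, 3 that Tregs are known for rose. Tnfrsf4 (OX40) stood at 611, 337 and 422 CPM in High and 356, 199 and 269.8 in Low. High replicate 2 lay below Low replicate 1, so the gates overlapped, yet every pair rose, by 1.66-fold overall (log2 0.73, SE 0.09, adjusted p = 0.000474). Tnfrsf18 (GITR) rose 1.34-fold, from 388, 306 and 386 in Low to 528, 427 and 485 in High (adjusted p = 0.0176). Tnfrsf9 (4-1BB) rose 1.45-fold (adjusted p = 0.0446). The Tnfrsf18 call was lost without WT High replicate 1 or 2 or WT Low replicate 1 or 3 (adjusted p from 0.0864 to 0.161), and Tnfrsf9 was called in 10 of the 23 fits. In contrast, 2 ligands of the family used by helper and cytotoxic cells fell. Fasl, the death ligand, stood at 7.13, 5.56 and 4.18 CPM in High and 14.1, 12.7 and 12.2 in Low, without overlap (log2 -1.23, SE 0.21, adjusted p = 0.00361). Cd40lg, through which helper T cells activate B cells, stood at 30.9, 30.3 and 26.5 against 53.2, 41.7 and 39.0 (log2 -0.61, SE 0.11, adjusted p = 0.00815). The Cd40lg call was lost without WT High replicate 1 or 2 or WT Low replicate 1 (adjusted p from 0.0575 to 0.110). In all, 3 of 19 tested genes of this list rose and 2 fell.

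Of 17 CD28 family and checkpoint receptors, only Ctla4 was called. This inhibitory receptor, which takes CD80 and CD86 from antigen-presenting cells, stood at 298, 214 and 282 CPM in High and 227, 132 and 177 in Low. High replicate 2 lay within the Low range, and the rise was 1.5-fold (log2 0.59, SE 0.10, adjusted p = 0.00657). Icos had -0.24 (SE 0.17), Pdcd1 0.33 (SE 0.14), Tigit -0.71 (SE 0.25) and Cd28 -0.19 (SE 0.07). None of these passed.

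For TGF-beta, 2 of 16 tested genes rose. Lrrc32 (chromosome 7, 98489283 to 98502181, plus strand) encodes GARP, which holds latent TGF-beta on the Treg surface. It stood at 676, 569 and 749 CPM in High and 277, 292 and 396 in Low, with wide separation and a 2.08-fold rise (log2 1.06, SE 0.09, adjusted p = 1.42e-05). Tgfbr1, a receptor chain for the cytokine, rose 1.42-fold (adjusted p = 0.0140), a call lost without WT High replicate 1 or 3 or WT Low replicate 1, 2 or 3 (adjusted p from 0.0503 to 0.161). Tgfb1 itself differed by 0.07 (SE 0.09), and Itgb8, an integrin chain that releases the active cytokine, by 0.66 (SE 0.16, adjusted p = 0.0564).

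The list of Foxp3 and factors that work with it had 7 positive and 10 negative differences among 17 tested genes (median log2 -0.08). Of the 17, 3 rose and none fell. Apart from Foxp3 these were Ikzf4 (Eos), a corepressor partner, at 253, 245 and 255 CPM in High and 164, 151 and 201 in Low (log2 0.55, SE 0.08, adjusted p = 0.00115), and Myb. Myb, a factor of blood progenitors that effector Tregs also use, stood at 51.7, 38.4 and 54.7 in High and 26.9, 7.86 and 18.6 in Low. No library overlapped, Low replicate 2 was the lowest, and the 2.93-fold rise (log2 1.55, SE 0.21, adjusted p = 0.00258) was among the larger ones, although the 6 WT libraries alone did not call it (adjusted p = 0.209). Ikzf2 (Helios) had 0.23 (SE 0.23, adjusted p = 0.912). The naive-cell factors Lef1 (-0.13), Tcf7 (-0.20) and Satb1 (-0.24) did not pass.

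**Figure D3:**
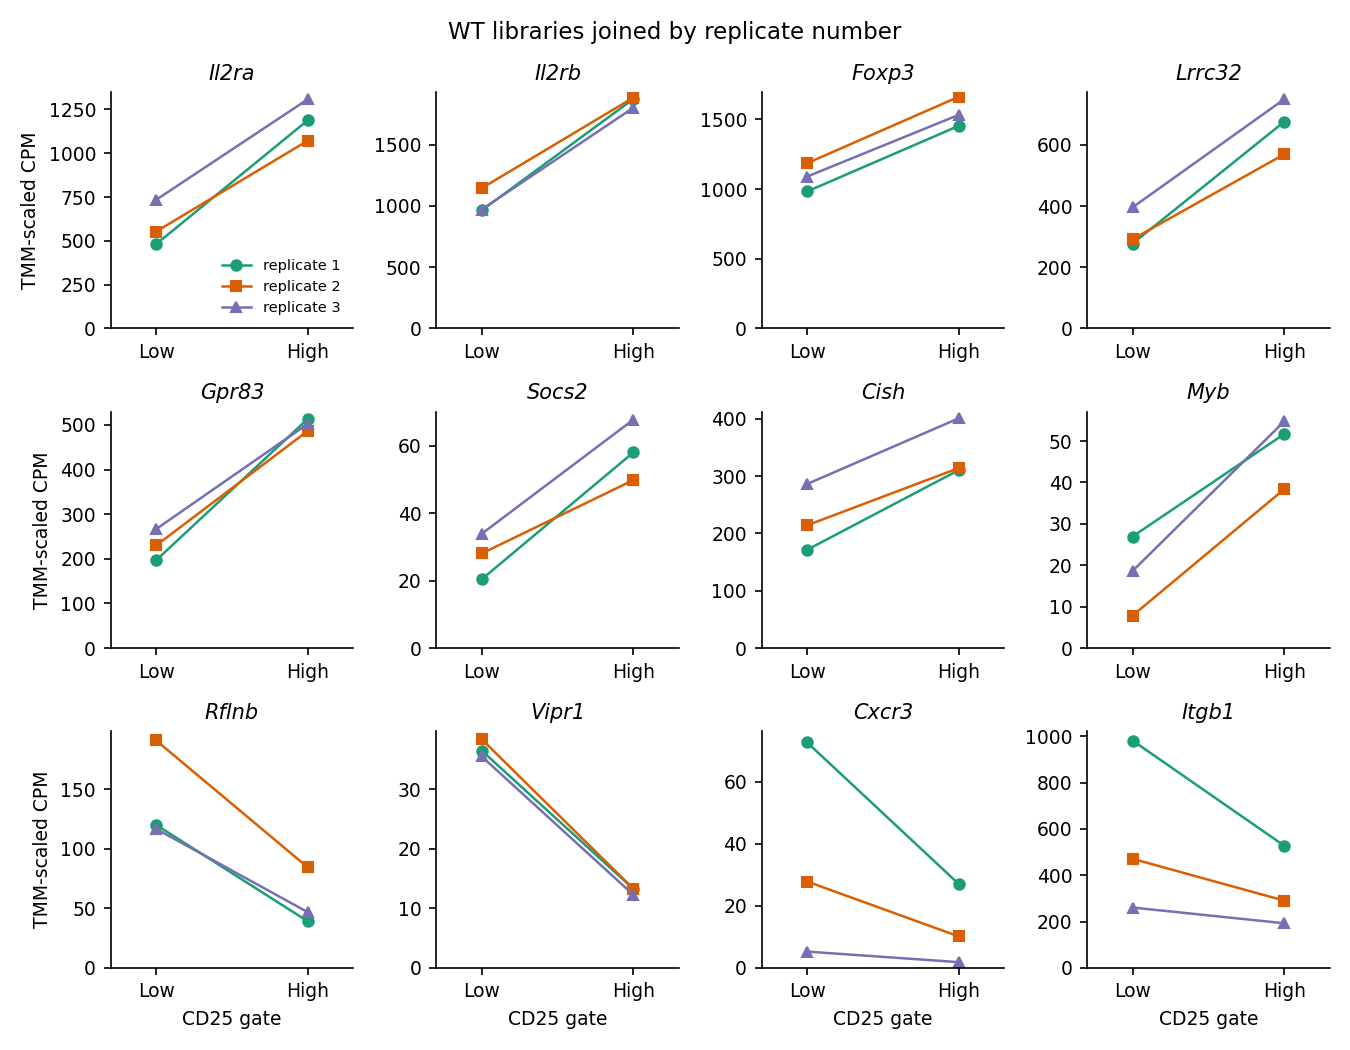
TMM-scaled CPM (y axis, from 0) in the CD25 Low and CD25 High libraries of WT mice for 12 genes, each line joining the 2 libraries of a replicate number. All lines slope the same way within a gene, while Cxcr3 and Itgb1 differ more between replicate numbers than between gates.

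Some genes of lipid and carnitine metabolism rose, while most genes of the lipid list did not pass. Pla2g4f (chromosome 2, 120299957 to 120314165, minus strand), a cytosolic phospholipase A2 that frees fatty acids from membranes, stood at 29.8, 17.0 and 26.6 CPM in High and 8.83, 4.53 and 8.76 in Low. Every High library was above every Low library, and the rise was 3.37-fold (log2 1.75, SE 0.17, adjusted p = 3.37e-05). Dgat2, which makes triglyceride, rose 2.18-fold (adjusted p = 0.00430; 0.0630 without WT Low replicate 1), and Scd2, a fatty acid desaturase, rose 1.42-fold (adjusted p = 0.00338). They were the 3 calls among 18 tested lipid genes, against 0.994% of all tested genes called higher. The list's median was 0.05, with 12 positive and 6 negative differences. Fasn, Acaca, Cpt1a and Srebf1 were among those not called. Slc22a5, the carnitine transporter that supplies fatty acid oxidation, is outside that list. It stood at 58.5, 71.1 and 87.0 CPM in High and 28.3, 34.9 and 50.2 in Low, without overlap (log2 0.95, SE 0.09, edgeR adjusted p = 4.08e-05).

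Single genes rose in neighbouring pathways. Rragd, a GTPase that recruits mTORC1 to the lysosome, stood at 28.9, 23.6 and 25.6 CPM in High and 12.7, 15.2 and 13.6 in Low and was the only call among 30 Rag and mTORC1 genes (log2 0.91, SE 0.12, adjusted p = 0.000593). Mcub, a subunit that restrains the mitochondrial calcium uniporter, stood at 46.1, 44.7 and 46.8 against 26, 25.9 and 30.6. Both gates were tight and separate, and it was the only call among 19 calcium genes (log2 0.74, SE 0.09, adjusted p = 0.000474). No member passed among 16 glycolysis genes (median 0.00) or 19 genes of oxidative phosphorylation (median -0.01). Over all tested genes 1.63% were called, so lists of this size hold few calls or none at that share. The nearest in glycolysis was the lactate exporter Slc16a3 (0.53, adjusted p = 0.0548).

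Outside these lists, Slc35d1, a transporter of nucleotide sugars into the endoplasmic reticulum, stood at 100.2, 89.6 and 113 CPM in High and 49.0, 36.6 and 61.6 in Low (log2 1.06, SE 0.10, adjusted p = 4.11e-05). Zscan29, a zinc finger protein gene, stood at 112, 115 and 130.0 against 56.9, 69.3 and 68.8 (log2 0.87, SE 0.09, adjusted p = 5.93e-05). Neither gene's gates overlapped. Ndrg1, a stress-responsive gene, rose by 0.88 (SE 0.10), Gsto1, a glutathione transferase, by 0.91 (SE 0.10), Capn3, a calcium-dependent protease, by 0.94 (SE 0.11) and Rasip1, a Ras-binding protein known from endothelium, by 1.36 (SE 0.17), all on the log2 scale, with adjusted p between 8.02e-05 and 0.000424. High and Low libraries were separate for each of the 4.

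NF-kB genes gave 3 calls among 22, all upward, with a median of 0.09 and 17 positive. Map3k8, a kinase that activates ERK and NF-kB, stood at 53.6, 61.1 and 78.1 CPM in High and 30.9, 32.3 and 52.9 in Low (log2 0.76, SE 0.11, adjusted p = 0.00149). Cd83, an activation marker, stood at 187, 75.2 and 90.2 in High and 135, 34.9 and 52.6 in Low: replicate 1 was high in both gates, so they overlapped, while each pair rose (log2 0.77, SE 0.12, adjusted p = 0.00345). Rel, the NF-kB subunit that acts on the Foxp3 gene, rose 1.42-fold (adjusted p = 0.0260). The Rel call was lost without WT High replicate 1 or 3 or WT Low replicate 1 or 3 (adjusted p from 0.132 to 0.201) and with a replicate block within each genotype (0.0623).

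Lists of survival, division and interferon genes gave 1 call each. Bcl2l1 (Bcl-xL) was the only call among 15 Bcl-2 family genes, at 1.27-fold (edgeR adjusted p = 0.0367). Leaving out any WT library ended it (adjusted p from 0.0974 to 0.249). So did leaving out TG High replicate 3 (0.0550) or the 4 libraries of any 1 number (0.102 to 0.494). Of 32 cell cycle genes 28 had a positive difference (median 0.14), but 1 was called. The list's median was 0.42 in pair 1, 0.09 in pair 2 and 0.02 in pair 3. Top2a, a topoisomerase of dividing cells, stood at 80.9, 10.7 and 7.32 CPM in High and 45.0, 8.40 and 3.62 in Low: replicate 1 of each gate was far above the others. Its difference of 0.73 (SE 0.15, adjusted p = 0.0160) did not pass without WT High replicate 1 or 3 or WT Low replicate 1 or 3 (adjusted p from 0.0713 to 0.249). Gbp3, an interferon-induced GTPase of a family with near-identical copies, was the only call among 27 interferon-stimulated genes (log2 0.65, SE 0.10, adjusted p = 0.00133), whose median was -0.07.

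Some genes of naive and conventional CD4 T cells fell in CD25 High, but most genes of these lists did not pass. Rflnb (ENSMUSG00000020846, chromosome 11, 76019194 to 76027782, minus strand), which encodes a filamin-binding protein and is high in naive T cells, stood at 39.0, 84.3 and 46.7 CPM in High and 120.0, 191 and 117 in Low. Replicate 2 was highest in both gates, yet no High library reached a Low library. The decrease was 2.58-fold (log2 -1.37, SE 0.10, adjusted p = 7.42e-06), the smallest p of all tested genes. Dapl1, a gene of resting T cells, stood at 10.7, 10.4 and 10.8 in High and 31.3, 23.2 and 26.5 in Low (log2 -1.35, SE 0.21, adjusted p = 0.00430). Its 3 High values lay within 1 CPM of each other, well under every Low value.

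Of 21 naive and resting genes 5 fell and none rose (median -0.17), and 5 of 17 conventional CD4 and Foxp3-repressed genes fell and none rose (median -0.37). Dapl1, Igfbp4 and Ly6c1 belong to both lists. Without the 4 libraries numbered 1, 2 of the 5 naive and 1 of the 5 conventional calls were made. Ly6c1, a surface protein gene with a near-identical neighbour, had -0.46 (SE 0.09, adjusted p = 0.0108), a call lost without WT High replicate 2 or 3 or WT Low replicate 2 (adjusted p from 0.0719 to 0.109). Tdrp fell by 0.64 on the log2 scale (adjusted p = 0.0169), and its call was lost without WT High replicate 2 or 3 or WT Low replicate 1 or 3 (adjusted p from 0.0668 to 0.132). Igfbp4, which binds insulin-like growth factors, fell by 0.50 and was called in 8 of the 23 fits. Other naive markers did not pass: Ccr7 had -0.17 (SE 0.08), Il7r 0.11 (SE 0.12) and Klf2 -0.16 (SE 0.07).

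A pair of genes that set cyclic AMP signalling in T cells had nearly the same decrease. Vipr1 (chromosome 9, 121642716 to 121672954, plus strand), the receptor for vasoactive intestinal peptide that raises cyclic AMP, stood at 13.3, 13.3 and 12.3 CPM in High and 36.5, 38.5 and 35.6 in Low. Both gates were unusually even, and the 2.85-fold decrease (log2 -1.51, SE 0.15, adjusted p = 4.08e-05) also passed without the block, alone among the decreases. Pde3b, a phosphodiesterase that breaks cyclic AMP down and is repressed by Foxp3, stood at 7.02, 10.6 and 6.41 in High and 29.9, 31.0 and 11.7 in Low (log2 -1.51, SE 0.24, adjusted p = 0.00430). The receptors Adora2a (0.02), Ptger2 (0.18) and Ptger4 (0.14) did not pass, and 1 gene rose and 2 fell among 18 tested in the list.

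Chemokine and migration receptors were the T cell list shifted furthest down. Of 18 tested, 5 fell and 1 rose, 4 had a positive difference, and the median was -0.57. The list's median was -0.74, -0.55 and -0.14 in pairs 1, 2 and 3. Without WT Low replicate 1, 3 of the 6 calls were made, and without the 4 libraries numbered 1, 1 was. Cxcr3 (chromosome X, 101731535 to 101734269, minus strand), which guides T cells to sites of type 1 inflammation, stood at 27.0, 10.1 and 1.83 CPM in High and 72.6, 27.8 and 5.23 in Low. It was highest in replicate 1 and lowest in replicate 3 of both gates, so the gates overlapped, yet High was lower in every pair (log2 -1.46, SE 0.20, adjusted p = 0.00158). Ccr2, the receptor for monocyte-attracting chemokines, behaved likewise, at 19.3, 10.5 and 0.610 in High and 50, 25.6 and 1.27 in Low (log2 -1.29, SE 0.20, adjusted p = 0.00197).

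Gpr183, an oxysterol receptor that places cells within lymphoid tissue, stood at 118, 136 and 90.6 CPM in High and 169.7, 205 and 127 in Low (log2 -0.54, SE 0.09, adjusted p = 0.00259). Ccr3 fell by 1.52 and Gpr15, a receptor for homing to the colon, by 0.83 on the log2 scale. The Gpr15 call was lost without WT High replicate 1 or 3 or WT Low replicate 1 or 3 (adjusted p from 0.0668 to 0.161), and Ccr3 was called in 16 of the 23 fits. The single increase was Ccr9, a receptor for homing to the small intestine (log2 0.55, SE 0.13, adjusted p = 0.0332), which was called in 14 of the 23. Ccr7 (-0.17) and Ccr4 (-0.95, adjusted p = 0.0907) did not pass.

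Adhesion genes showed 3 decreases and 1 increase among 23. Itgb1, the integrin beta 1 chain, stood at 527, 290.3 and 193 CPM in High and 982, 471 and 261 in Low. Replicate 1 of High exceeded replicates 2 and 3 of Low, but every pair fell, 1.6-fold overall (log2 -0.68, SE 0.09, adjusted p = 0.000593). Ly6a (Sca-1), of a family with near-identical copies, fell 1.67-fold (adjusted p = 0.00518; 0.0525 without WT High replicate 1). Selp, encoding P-selectin, rose 2.35-fold (adjusted p = 0.0207), a call lost without WT High replicate 1 or 2 or WT Low replicate 1, 2 or 3 (adjusted p from 0.0510 to 0.167). Among other cytokine receptors, 1 of 22 fell and none rose: Il9r stood at 8.57, 2.91 and 0.872 in High and 26.9, 8.29 and 1.57 in Low, again with replicate 1 highest in both gates (log2 -1.46, SE 0.19, adjusted p = 0.000564).

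The remaining leading decreases came from several functions. Chil5, a chitinase-like gene, stood at 11.6, 24.0 and 13.7 CPM in High and 25.2, 41.7 and 24.4 in Low (log2 -0.91, SE 0.12). Eya2, a phosphatase and transcriptional coactivator, stood at 13.0, 21.9 and 15.3 against 25.0, 36.1 and 26.6 (log2 -0.82, SE 0.11). Chd7, a chromatin remodeller, stood at 57.3, 73.9 and 55.6 against 93.4, 107 and 93.6 (log2 -0.66, SE 0.09). The gates of these 3 genes did not overlap and edgeR gave each an adjusted p between 0.000554 and 0.000564. Myo6, a motor that walks towards the minus end of actin, fell 1.87-fold, Padi2, which converts arginine to citrulline, 1.67-fold, F2rl1, the protease-activated receptor PAR2, 1.71-fold, Klhl5, a kelch protein, 1.81-fold and Sgk1, a kinase induced by salt and glucocorticoid, 1.59-fold, with adjusted p from 0.000564 to 0.00198.

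Lists of T cell activation and lineage gave no call, while 1.63% of all tested genes were called. At that share, a list of this size holds few calls or none. None of 27 genes of the T cell receptor complex and its proximal signalling passed in edgeR (median -0.05, 4 at an unadjusted p under 0.05), nor of 20 immediate early and NFAT genes (median 0.01, 2 such genes), nor of 20 helper lineage and effector factors (median -0.16, 5 such genes). Among the last, Tbx21, the type 1 helper factor, had 7.50, 2.23 and 1.48 CPM in High and 15, 5.02 and 1.76 in Low (-0.88, adjusted p = 0.144), and Rora had -0.44 (SE 0.15). Heat shock (15 genes, median -0.01) and ribosomal protein genes (23 genes, median -0.05) also gave none.

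Transcripts of other cells also differed between the gates, although not in the same direction in every pair. All 19 tested B cell markers had a negative difference (median log2 -0.49), and 1, the coactivator Pou2af1, was called (log2 -1.12, adjusted p = 0.0314; 0.220 without WT Low replicate 1 and 0.317 without WT High replicate 1). The 19 markers summed to 1304, 589 and 407 CPM (of unscaled totals) in High replicates 1, 2 and 3 and to 1761, 687 and 498 in Low. Each pair was lower in High, and the 2 libraries numbered 1 were the highest. Myeloid and dendritic markers (22 in the table, 13 tested, 11 of them negative, median -1.20) summed to 114.9, 88.6 and 94.1 in High and 234.1, 101.9 and 88.8 in Low. The median of the tested myeloid markers was -2.55, -0.43 and 0.20 in pairs 1, 2 and 3, so pair 3 had the opposite sign. WT Low replicate 1 alone held the macrophage genes Csf1r at 16.1 CPM, C1qb at 11.9, C1qc at 11.8 and Hmox1 at 17.0.

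Vcam1, also a macrophage gene of spleen, was the largest called decrease, with 0.268, 0 and 0.0872 CPM in High and 19.9, 0.273 and 0.587 in Low (log2 -5.78, SE 0.85, adjusted p = 0.00345). Its level was carried by WT Low replicate 1. The fit without that library still called it (log2 -6.70, adjusted p = 0.0331), but not the fit without WT High replicate 1 (0.736) nor DESeq2 (0.255). CD8 and NK markers (18 in the table, 15 tested, 10 of them negative, median -0.64) summed to 177.2, 96.4 and 85.7 in High and 217.2, 121.4 and 69.6 in Low. Their median was -0.88, -0.34 and 0.20 in pairs 1, 2 and 3, again with the opposite sign in pair 3. The 4 called were the NK receptor genes Ncr1, Klrk1, Klrd1 and Klrb1c, all of which were near 0 in High: Ncr1 stood at 1.13, 0.0843 and 0 CPM there and 8.42, 2.35 and 0 in Low. Without WT High replicate 1 none of the 4 was called, and without WT Low replicate 1 the calls of Klrk1 (0.356) and Klrd1 (0.209) were lost. Of the neutrophil and platelet markers, Elane, Ly6g, Ppbp and Pf4 were at 0 in all 6 WT libraries. The platelet gene Itga2b stood at 0.696 to 2.03 CPM of unscaled totals there. S100a8, S100a9 and Mpo were above 0 in only some of the WT libraries. Cxcr3, Ccr2, Il9r and Itgb1 were highest in the same replicate 1 libraries, and the part of other cells in these decreases was not tested.

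**Figure D4:**
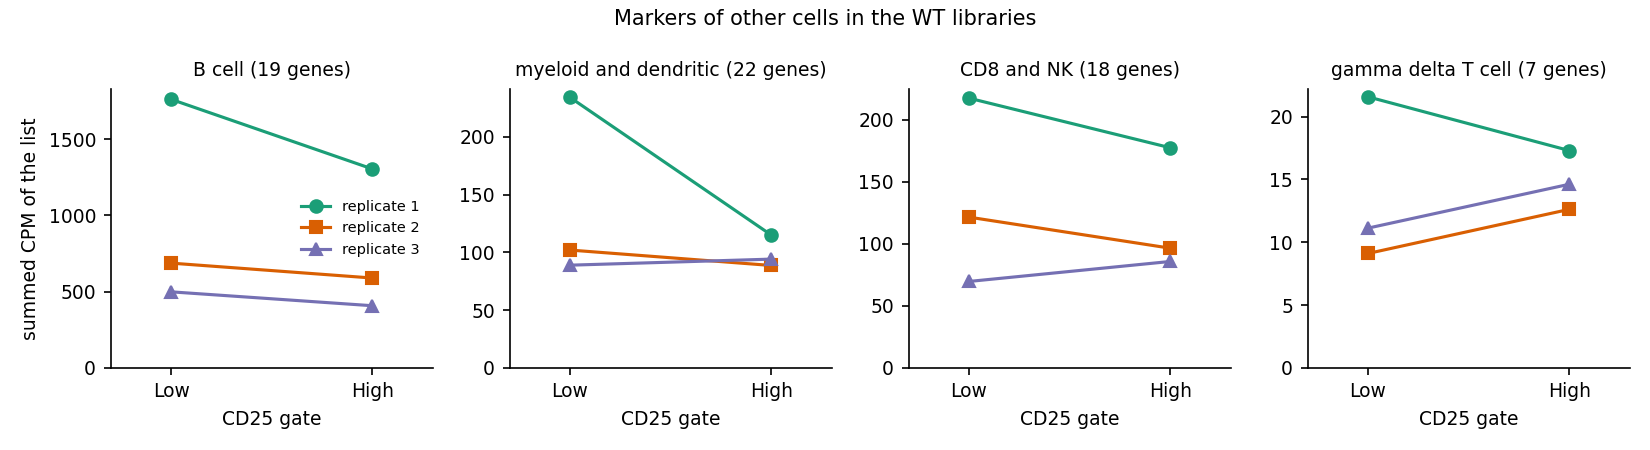
Summed CPM of unscaled totals (y axis, from 0, scales differ) for 4 marker lists of other cells in the Low and High libraries of WT mice, each line joining the libraries of a replicate number. Replicate 1 lies highest in every panel, and the myeloid sum of WT Low replicate 1, 234.1 CPM, stands apart from the other 5 libraries.

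The same contrast was measured in the 6 libraries of TG mice. They share no library with WT but share the replicate effect and the estimate of spread in the fit. There edgeR called 198 genes (1.68%). Of the 192 WT calls, 191 had the same sign in TG, against 70.8% of all tested genes. The exception was the immunoglobulin segment Igkv1-135, at 1.23, 0 and 0.0436 CPM in WT High and 8.52, 0.164 and 0.0978 in WT Low. The genes called in both with the same sign numbered 129, which is 67.2% of the WT calls and 65.2% of the TG calls. Foxp3 differed by 0.51 in WT and by 0.42 in TG (TG adjusted p = 0.0114). Il2ra had 1.03 in WT and 1.01 in TG, a difference of 0.02 (95% interval -0.23 to 0.27). Rflnb had -1.37 and -1.22, a difference of -0.15 (95% interval -0.44 to 0.13).

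The difference of the gate effects between WT and TG gave 0 calls in edgeR (0% of 11766), with 118 genes at an unadjusted p under 0.05. DESeq2 and limma voom gave 0 as well, with 95 and 171 such genes. In each fit this is under 0.05 of the tested genes, the share expected where no gene differs. These counts are therefore no sign of differences, and 0 calls do not show that the gate effects are equal. The smallest p belonged to Sap130, a corepressor subunit, whose gate difference was -0.01 in WT and -0.68 in TG (difference 0.67, SE 0.15, adjusted p = 1.00). Clec2d (0.80), Helb (0.55), Fn1 (4.30, from under 2 CPM) and Igkv1-135 (-2.70) followed with the same adjusted p. No gene is therefore called particular to WT.

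**Figure D5:**
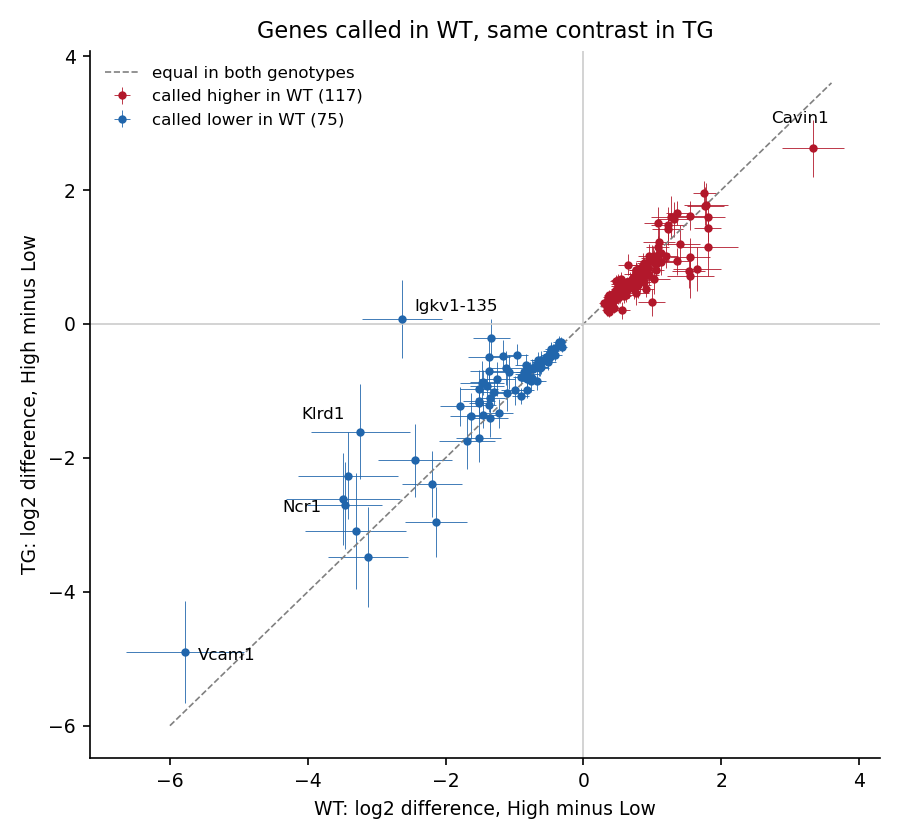
Log2 difference between CD25 High and Low in WT (x axis) against TG (y axis) for the 192 genes called in WT, with bars of 1 SE. Red points are the 117 called higher and blue the 75 called lower; 191 lie in the quadrants of equal sign, and Igkv1-135 is the exception.

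Many calls depended on the libraries numbered 1. With each of the 12 libraries left out in turn, 72 of the 192 genes were called each time, 51 higher and 21 lower. Il2ra, Il2rb, Lrrc32, Gpr83, Socs2, Tnfrsf4, Rgs1, Map3k8, Pla2g4f, Slc22a5, Zscan29 and Mcub among increases, and Rflnb, Vipr1, Cxcr3, Itgb1, Eya2 and Chd7 among decreases, were called in all 23 fits with the block. Foxp3 was called with every single library left out, but not without all 4 libraries numbered 1 (adjusted p = 0.0928). The same held for Cish (0.0613), Ikzf4 (0.0646), Rragd (0.0533), Ccr2 (0.100), Gpr183 (0.0773), Il9r (0.155), Pde3b (0.0872), Klhl5 (0.0710), Sgk1 (0.0605) and Scd2 (0.0710). Scd2 was also lost without the libraries numbered 3 (0.103). Ctla4 was lost without the libraries numbered 2 (0.205) and without those numbered 3 (0.0546), and Cd83 (0.0581), Fasl (0.0546) and Dapl1 (0.0898) without those numbered 3. Among calls that also ended without a single library, several were lost without the 4 libraries numbered 1. By edgeR adjusted p these included Dgat2 (0.0613), Ly6c1 (0.0630), Ly6a (0.0710), Selp (0.111), Tdrp (0.131) and Entpd1 (0.217). Further losses there were Cd40lg (0.232), Tgfbr1 (0.270), Tnfrsf18 (0.350), Gpr15 (0.462), Rel (0.563), Top2a (0.615) and Pou2af1 (0.796). The fits without the libraries of a number have 8 libraries and correspondingly fewer degrees of freedom.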

How the data were processed

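The authors deposited raw read counts (whole numbers) for each Ensembl gene. CASAVA 1.8.2, STAR 2.4, featureCounts 1.4.6 and build GRCm38 are named per the submitters' processing notes. Per the labels' protocols, SMARTer Ultra Low cDNA was made from 10 ng of RNA, and the series' design text names Nextera XT. This chemistry does not mark strand, so reads of overlapping or antisense genes cannot be separated. Of 21839 genes, 21628 matched a symbol in GENCODE vM21, the source of positions.

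edgeR 4.0.16 (R 4.3.3) fitted 12 libraries (6767828 to 23942479 counts each) with 4 groups and the replicate number as block (6 residual degrees of freedom): TMM, filterByExpr (minimum count 10; 11766 genes, 99.96% of counts), robust quasi-likelihood, Benjamini-Hochberg at 0.05. The labels do not say what numbers mark; over all groups the deviations of libraries with equal numbers correlated at 0.340 to 0.830 (18 pairs), the others at -0.688 to 0.197 (36). Intervals are 1.96 SE. Levels are CPM on TMM-scaled totals, pairwise differences use a prior count of 2. DESeq2 1.42.0 and limma 3.58.1 were alternatives. The fit was tested on simulated data.

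Members, lists and tests were chosen with earlier results of these data known. Named genes were Il2ra, Foxp3 and Cd4, the 15 calls per direction with the smallest p (at least 10 CPM in the higher gate, same direction in 3 pairs, no predicted gene), up to 4 calls per list (2 genes where none was called), and the 5 smallest p for WT minus TG. Others were named after their values were seen. One further sort marker, positive in both gates, and its gene are not reported here.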

Additional observations from a re-analysis of the deposited data

How the results depend on the processing

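The count of 192 genes stayed between 145 and 281 under 2 other scalings, 2 other low-count filters, DESeq2, limma voom, a block within genotype and the omission of the libraries numbered 2 or 3. It was 6 without the replicate block, that is without the pairing, 393 in the 6 WT libraries alone with the block and 49 without the 4 libraries numbered 1. Leaving out 1 library gave 87 (WT Low replicate 1) to 247 (TG High replicate 2) calls; without WT High replicate 1 it was 96. Every one of the 192 that was tested under an alternative kept its sign. The difference of gate effects gave 0 calls in each fit run. Totals from 18161830 counts per WT library leave genes near 1 CPM, such as the NK receptors, with few reads.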

Other observations

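The called genes described here lie outside every list. They were chosen after their values were seen, and no group of them was tested. Dnah7a, Drc1 and Ift80, genes with known roles in cilia, rose in CD25 High. Dnah7a, an axonemal dynein heavy chain with near-identical copies, stood at 12.9, 4.21 and 7.67 CPM in WT High replicates 1, 2 and 3 and at 3.29, 1.47 and 2.10 in WT Low (log2 1.8, SE 0.19, edgeR adjusted p = 8.02e-05). Drc1, a dynein regulator, stood at 22.2, 16.9 and 23.3 in High and 4.47, 4.58 and 9.83 in Low (log2 1.81, SE 0.24, adjusted p = 0.00116). Ift80, a part of the ciliary transport complex, was at 570.0, 576 and 585 against 408, 435 and 498 (log2 0.37, adjusted p = 0.0151). The gates did not overlap in any of the 3 genes. Of the 23 fits that kept the replicate block, 23 called Dnah7a, 22 called Drc1 and 16 called Ift80.

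Called genes of matrix proteins and matrix enzymes went in both directions. Itih5, a hyaluronan-binding inhibitor chain, stood at 154, 122 and 164 CPM in High and 75.5, 72.7 and 115 in Low (log2 0.76, SE 0.10, adjusted p = 0.000564). Adamts6, a metalloprotease, stood at 59.3, 46.6 and 60.6 against 38.7, 25.2 and 41.3 (log2 0.68, SE 0.09, adjusted p = 0.000817). Ecm1, a secreted matrix protein, stood at 570.0, 620.0 and 559 against 316, 395 and 404 (log2 0.66, adjusted p = 0.0284), and High lay above Low in every library of all 3 genes. Matn2, a matrilin, had 1.36 (SE 0.19), with an overlap between the gates. Itih5, Adamts6 and Matn2 were called in all 23 fits, Ecm1 in 15. The proteoglycan gene Spock2 fell by 1.10, Hs3st3b1 and Dse, enzymes that modify glycosaminoglycans, by 0.99 and 0.82, and the collagen receptor Ddr1 by 0.74 on the log2 scale, called in 9, 17, 17 and 19 of the 23 fits. Among myosins, Myo1e rose by 0.57 and Myo1f fell by 1.4 on the log2 scale (adjusted p = 0.00115 and 0.0251); Myo1f was called in 14 of the 23 fits.

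Cavin1, a coat protein of caveolae, had the largest called increase, from 0.308, 0.109 and 0.391 CPM in Low to 4.82, 0.801 and 2.92 in High (log2 3.33, SE 0.45, adjusted p = 0.000593). Gata1, a factor of erythroid and mast cells, stood at 61.7, 75.4 and 76.5 CPM in High and 40.9, 56.7 and 61.5 in Low (log2 0.44, adjusted p = 0.0242), while the erythroid genes Hbb-bs, Hba-a1 and Alas2 were under 1 CPM in all 6 WT libraries. Gata1 was called in 17 of the 23 fits. The T cell receptor segment Trbv12-1 stood at 48.8, 39.4 and 59.4 in High and 27.9, 22.1 and 37.6 in Low (log2 0.76, SE 0.10, adjusted p = 0.000564) and was called in all 23.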
